A study of Mus musculus with 11 samples.

Results

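The genes of the myeloid transcription factors C/EBP, PU.1 and IRF8 were followed in stem cells and granulocyte-monocyte progenitors of mouse bone marrow. They were 7 of the 54347 genes in the count table, chosen by symbol: Spi1, which encodes PU.1, the C/EBP genes Cebpa, Cebpb, Cebpd, Cebpe and Cebpg, and Irf8. All 7 passed the filter on low counts, which left 14915 genes for testing. The cells came from 4 wild-type female C57BL/6NTac mice (ages not given in the sources used here). Marrow was depleted of lineage-positive cells before sorting. Long-term haematopoietic stem cells (LT-HSCs) were sorted as CD150+ CD48- cells positive for c-Kit and Sca-1, then split by the surface sialomucin endomucin into EMCN+ and EMCN- fractions. Granulocyte-monocyte progenitors (GMPs) were sorted as a more differentiated population. EMCN+ LT-HSCs gave 4 libraries, EMCN- LT-HSCs 3 and GMPs 4, the EMCN- library of mouse 3 having been removed by the submitters. Libraries with the same mouse number came from the same animal.

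C/EBP proteins are basic leucine zipper (bZIP) factors that bind DNA as homodimers or heterodimers. C/EBP-alpha is required for the formation of GMPs, and C/EBP-epsilon for the later maturation of granulocytes. PU.1 is an ETS-family factor needed in both stem cells and myeloid cells, where its dose matters. IRF8, an interferon regulatory factor, binds many sites only beside PU.1, favours monocytes and dendritic cells and restrains neutrophil production.

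The members lie at separate loci except for Cebpa and Cebpg, which are neighbours on chromosome 7. In GENCODE M21 on GRCm38, Spi1 (ENSMUSG00000002111.8) lies at chr2:91082390-91115756 on the + strand, with up to 5 exons per transcript. Cebpa (ENSMUSG00000034957.10) lies at chr7:35119293-35121928 (+) and Cebpg (ENSMUSG00000056216.9) at chr7:35046422-35056573 (-). Cebpb (ENSMUSG00000056501.3) is a gene of 1 exon at chr2:167688915-167690418 (+). Cebpd (ENSMUSG00000071637.5) lies at chr16:15887286-15891031 (+), Cebpe (ENSMUSG00000052435.7) at chr14:54710360-54712174 (-), with 2 exons, and Irf8 (ENSMUSG00000041515.10) at chr8:120736358-120756694 (+), with up to 9 exons.

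Of the 7 members, 4 matched the table of RefSeq promoters and are shown so that the rising Cebpa, Cebpb and Irf8 can be set beside Cebpg, which did not pass the test. Spi1, Cebpd and Cebpe had no match. Each run gives the 250 bases before the start of the gene in RefSeq on GRCm38.p6, 5′ to 3′ on the gene's strand, with capitals for the motifs found. The windows are chr7:35119043-35119292 (+) for Cebpa, chr2:167688665-167688914 (+) for Cebpb, chr8:120736108-120736357 (+) for Irf8 and chr7:35056567-35056816 (-) for Cebpg.
Cebpa: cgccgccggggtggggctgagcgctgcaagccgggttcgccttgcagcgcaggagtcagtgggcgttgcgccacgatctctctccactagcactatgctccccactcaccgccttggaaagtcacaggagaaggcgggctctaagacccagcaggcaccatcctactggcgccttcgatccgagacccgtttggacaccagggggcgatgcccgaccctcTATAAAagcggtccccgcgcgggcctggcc
Cebpb: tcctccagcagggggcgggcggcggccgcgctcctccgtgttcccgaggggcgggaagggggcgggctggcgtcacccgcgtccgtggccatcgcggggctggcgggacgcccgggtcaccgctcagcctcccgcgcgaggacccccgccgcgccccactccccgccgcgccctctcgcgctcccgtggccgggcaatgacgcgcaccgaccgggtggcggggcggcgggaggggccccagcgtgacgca
Irf8: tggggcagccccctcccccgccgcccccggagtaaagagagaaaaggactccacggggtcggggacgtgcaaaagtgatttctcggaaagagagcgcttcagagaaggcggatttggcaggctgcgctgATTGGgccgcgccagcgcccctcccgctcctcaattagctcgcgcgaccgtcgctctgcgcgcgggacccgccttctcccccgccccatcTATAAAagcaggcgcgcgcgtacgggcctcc
Cebpg: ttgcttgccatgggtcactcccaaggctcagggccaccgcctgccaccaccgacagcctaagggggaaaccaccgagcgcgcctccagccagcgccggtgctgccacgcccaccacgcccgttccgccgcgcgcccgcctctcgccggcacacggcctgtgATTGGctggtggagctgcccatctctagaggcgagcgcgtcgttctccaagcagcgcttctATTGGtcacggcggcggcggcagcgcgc
The capitals in Cebpa and Irf8 mark TATAAA, which begins 30 and 31 bases before the start. The other capitals, ATTGG, are the reverse complement of CCAAT and begin 121 bases before the start in Irf8 and 89 and 28 bases before it in Cebpg. Both strands were searched. TATAAA stood in 12.4% and CCAAT in 33.8% of the 32851 mouse promoter windows of this length, and TATAAA was added to the search after the sequences had been seen. The C/EBP motif TTGCNNAA (9.56% of promoters), the PU.1 motif GAGGAA (23.3%), the ETS-IRF motif (GGAA and GAAA with any 2 bases between them, 2.3%) and the IRF motif (GAAA repeated after any 2 bases, 2.98%) were not in these 4 windows. Irf8 had a second listed window, chr8:120738389-120738638 (+), which is not shown. It held none of these motifs and neither TATAAA nor CCAAT. A match describes letters in a window, not an occupied site.

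Library totals ranged from 3629234 to 11141483 estimated counts. Levels are given as CPM, counts per M counts, with TMM normalization factors. By library, 1 count equalled 0.0697 to 0.235 CPM, and where a gene had no counts its level could have reached that of 3 counts, 0.209 to 0.705 CPM. These limits cover counting error only, since the reads carried no molecular identifiers. Summed over 13 LT-HSC markers, libraries held 2018 to 2379 CPM in EMCN+ LT-HSCs, 1652 to 1824 CPM in EMCN- LT-HSCs and 190.0 to 301.3 CPM in GMPs. Summed over 13 GMP markers they held 1103 to 1353, 1343 to 1481 and 20512 to 24260 CPM. The LT-HSC list holds Slamf1, Ly6a and Kit, and the GMP list Cd48, Fcgr3, Fcgr2b and Kit. These genes encode surface proteins used in the sort, so the sums are not independent of it, and Kit counts in both. Ctsg was the only GMP marker at 0 in EMCN+ LT-HSCs, and no LT-HSC marker was at 0 in any population.

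In GMPs, 6 of the 7 members rose against each LT-HSC fraction and none fell. Irf8, Cebpd and Cebpa rose by 27.7-fold to 48.1-fold, and Spi1 and Cebpb by 2.90-fold to 4.15-fold. Cebpe went from 6 counts in all EMCN+ LT-HSC libraries together to 542 counts in GMPs, and passed the low-count filter only through GMPs. Cebpg did not pass the test in either comparison. Calls used edgeR's quasi-likelihood test with Benjamini-Hochberg adjusted p of at most 0.05 over all tested genes. Against EMCN+ LT-HSCs, 29.4% of all genes tested were higher in GMPs and 31.9% lower, and against EMCN- LT-HSCs 24.4% were higher and 28.3% lower. Both comparisons use the same GMP libraries. In these bulk samples a larger share of cells expressing a gene and more RNA per cell cannot be told apart.

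**Figure D1:**
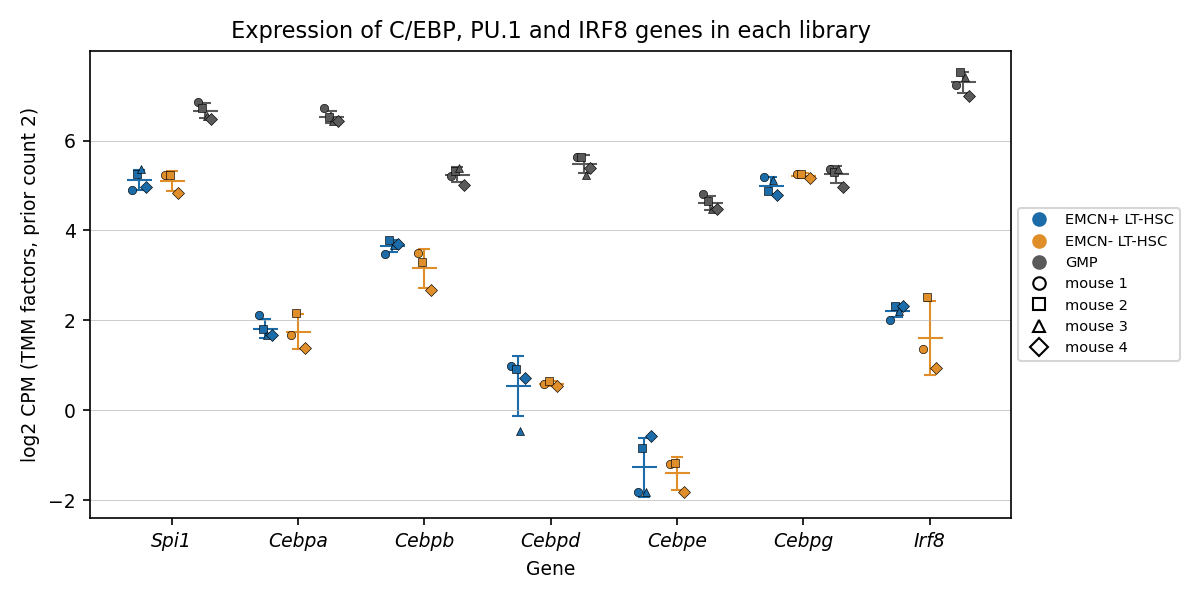
Log2 CPM (TMM factors, prior count 2) of the 7 genes in each library, with colour for the population and symbol shape for the mouse; horizontal marks are group means and bars the SD (n = 4, 3 and 4). For 6 genes all 4 GMP libraries lie above all LT-HSC libraries, and for Cebpg the populations overlap.

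Spi1 had the highest mean level per kb of the members in stem cells, with either the longest or the median transcript as its length. Its level was 29.8, 37.7, 40.8 and 30.9 CPM in EMCN+ LT-HSCs of mice 1 to 4, 37.5, 37.1 and 28.2 CPM in EMCN- LT-HSCs of mice 1, 2 and 4, and 116.0, 106.1, 93.8 and 89.4 CPM in GMPs of mice 1 to 4. The lowest GMP library was above the highest LT-HSC library, and the LT-HSC fractions overlapped. Means were 34.8 ± 5.31 CPM (SD, n = 4), 34.3 ± 5.27 (n = 3) and 101.3 ± 12.1 (n = 4). Spi1 was 2.90-fold higher in GMPs than in EMCN+ LT-HSCs (log2 change 1.54 ± 0.13 SE, edgeR adjusted p 1.85e-09) and 2.94-fold higher than in EMCN- LT-HSCs (1.56 ± 0.15, edgeR adjusted p 1.53e-08).

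Cebpa was low in both stem cell fractions and high in every GMP library. EMCN+ LT-HSCs of mice 1 to 4 held 4.07, 3.21, 2.90 and 2.93 CPM, EMCN- LT-HSCs of mice 1, 2 and 4 held 2.91, 4.20 and 2.35 CPM, and GMPs of mice 1 to 4 held 105.5, 91.7, 85.8 and 85.7 CPM. The stem cell fractions overlapped and the GMP libraries stood clear of both. Cebpa was 27.7-fold higher in GMPs than in EMCN+ LT-HSCs (log2 change 4.79 ± 0.16 SE, edgeR adjusted p 2e-15), with a log2 difference of 4.60 to 4.76 within each of 4 mice. Against EMCN- LT-HSCs it was 28.5-fold higher (4.83 ± 0.19, edgeR adjusted p 4.53e-14).

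Cebpb, known for emergency granulopoiesis and macrophage genes, was already measurable in stem cells. It stood at 10.8, 13.5, 12.6 and 12.7 CPM in EMCN+ LT-HSCs, 11.02, 9.53 and 6.11 CPM in EMCN- LT-HSCs and 36.6, 39.7, 41.9 and 32.1 CPM in GMPs, in the same order of mice. No GMP library overlapped the stem cells. The change was 3.03-fold against EMCN+ LT-HSCs (log2 1.60 ± 0.17 SE, edgeR adjusted p 4.04e-08) and 4.15-fold against EMCN- LT-HSCs (2.05 ± 0.19, edgeR adjusted p 1.66e-08). The 5' part of the antisense gene Tmem189 overlaps the exon of Cebpb, and the strand setting of the counting is not given in the sources used here. Tmem189 was at 13.8 ± 0.711, 12.1 ± 1.65 and 10.9 ± 2.09 CPM in the 3 populations (SD, n = 4, 3 and 4) and was not called in either comparison (edgeR adjusted p 0.129 and 0.54).

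Cebpd, an acute-phase member of the family, was near 1 CPM in stem cells. EMCN+ LT-HSCs held 1.69, 1.60, 0.446 and 1.37 CPM, EMCN- LT-HSCs 1.22, 1.29 and 1.17 CPM, and GMPs 49.7, 49.6, 37.3 and 41.6 CPM. Mouse 3 was the low library among EMCN+ LT-HSCs. The gene was 33.8-fold higher in GMPs than in EMCN+ LT-HSCs (log2 5.08 ± 0.25 SE, edgeR adjusted p 4.71e-13) and 35.6-fold higher than in EMCN- LT-HSCs (5.16 ± 0.30, edgeR adjusted p 1.41e-11). The antisense gene Spidr, which overlaps a Cebpd exon, was at 22.6 ± 2.22 CPM in EMCN+ LT-HSCs and 33.1 ± 3.65 CPM in GMPs (SD, n = 4 each). It was called higher in GMPs in both comparisons (log2 0.55 ± 0.14 SE, edgeR adjusted p 0.0014, and 0.42 ± 0.15, edgeR adjusted p 0.0239), but had the opposite sign with total scaling (-0.27 and -0.31). The second call was lost without the EMCN- library of mouse 2 (edgeR adjusted p 0.105) or the GMP library of mouse 2 (0.0788). Its part in the Cebpd counts was not tested.

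Cebpe was at or near 0 in stem cells. EMCN+ LT-HSC libraries of mice 1 to 4 held 0, 4, 0 and 2 counts, EMCN- LT-HSC libraries of mice 1, 2 and 4 held 1, 1 and 0 counts, and GMP libraries of mice 1 to 4 held 175, 152, 97 and 118 counts. At 27.6, 24.8, 22.1 and 22.0 CPM, every GMP library was far above every stem cell library. The ratio of summed counts per effective library size was 157 against EMCN+ LT-HSCs (exact 95% counting interval 71.5 to 429) and 207 against EMCN- LT-HSCs (57.1 to 1715). EdgeR's log2 change was 7.13 ± 0.44 SE (adjusted p 1.21e-11) and 7.49 ± 0.56 (adjusted p 4.71e-10), the first being 7.85 without the EMCN+ library of mouse 2. With so few counts in stem cells, Cebpe passed the low-count filter only through GMPs, so its call is a description. At this depth a level below the 3-count limit in stem cells cannot be told from none.

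Cebpg, which lacks a strong activation domain and pairs with other bZIP factors such as ATF4, differed little in CPM with TMM factors. In TPM, which does not use these factors, it was lower in GMPs. It stood at 35.9, 29.2, 34.4 and 27.4 CPM in EMCN+ LT-HSCs, 37.9, 37.6 and 35.5 CPM in EMCN- LT-HSCs and 40.7, 39.0, 41.2 and 31.2 CPM in GMPs. The populations overlapped. Within mice Cebpg was higher in GMPs than in EMCN+ LT-HSCs in 4 of 4 (log2 0.18 to 0.41), and than in EMCN- LT-HSCs in 2 of 3 (-0.19 to 0.10). The log2 change in GMPs was 0.26 ± 0.13 SE against EMCN+ LT-HSCs (95% interval -0.01 to 0.52, edgeR adjusted p 0.0874) and 0.04 ± 0.14 against EMCN- LT-HSCs (-0.25 to 0.33, edgeR adjusted p 0.847). Without the GMP library of mouse 4, the first reached 0.34 with an edgeR adjusted p of 0.028. With libraries scaled by their totals alone, the values turned to -0.58 and -0.69 (edgeR adjusted p 0.000817 and 0.000423), while the median of all genes moved to -0.86 and -0.75.

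Irf8 was low in stem cells and high in every GMP library. Its level was 3.77, 4.74, 4.34 and 4.69 CPM in EMCN+ LT-HSCs, 2.29, 5.49 and 1.64 CPM in EMCN- LT-HSCs, and 150.5, 183.1, 171.0 and 127.1 CPM in GMPs. The EMCN- libraries were spread on both sides of the EMCN+ libraries, with mouse 2 the highest stem cell library of all. Irf8 was 35.9-fold higher in GMPs than in EMCN+ LT-HSCs (log2 5.17 ± 0.21 SE, edgeR adjusted p 1.73e-12) and 48.1-fold higher than in EMCN- LT-HSCs (5.59 ± 0.26, edgeR adjusted p 1.74e-11). Without the EMCN- library of mouse 2 the second log2 change was 6.30, over 1.5 times larger as a fold.

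**Figure D2:**
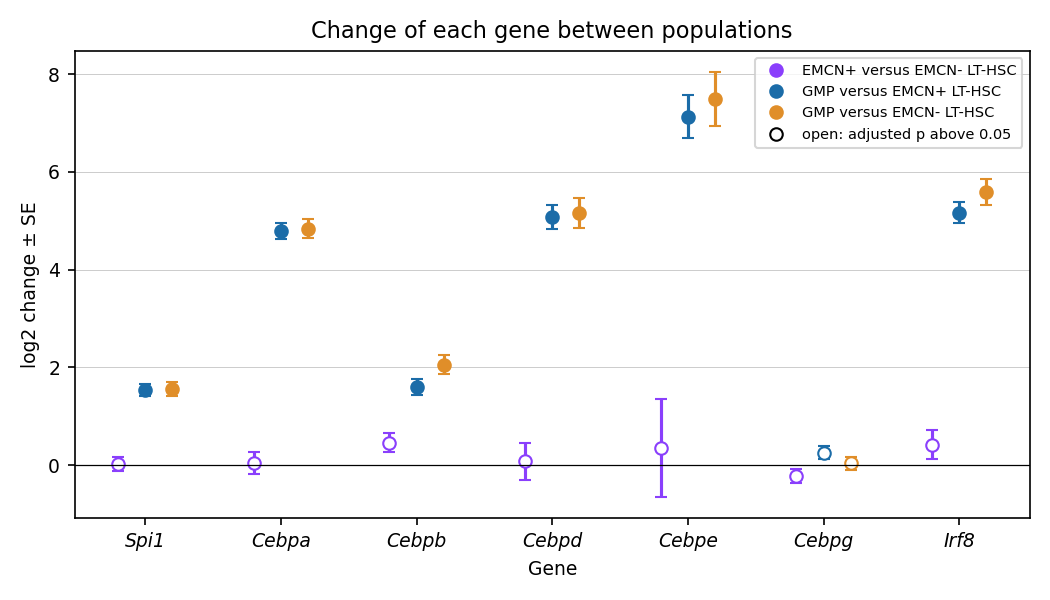
Log2 change ± SE of each gene in the 3 comparisons from edgeR, with filled points for adjusted p of at most 0.05 and open points for the rest; the line marks 0. The GMP comparisons are filled for all genes but Cebpg, and all 7 points of the EMCN comparison are open.

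In CPM with TMM factors, the 6 called members also had no overlap between GMP libraries and those of each stem cell fraction. Over all genes tested, 27.7% were higher without overlap in GMPs against EMCN+ LT-HSCs and 25.8% against EMCN- LT-HSCs. TMM factors were 1.10 to 1.31 in LT-HSC libraries and 0.668 to 0.757 in GMP libraries. TPM, counts per length of the longest transcript scaled to a fixed sum, does not use these factors. Spi1 spanned 23.1 to 39.0 TPM in EMCN+ LT-HSCs, 20.1 to 31.5 in EMCN- LT-HSCs and 29.3 to 40.5 in GMPs. Cebpb spanned 12.7 to 16.3, 5.90 to 12.5 and 15.4 to 17.7 TPM. In TPM the GMP libraries still stood clear for the other called members. Cebpg, which was not called, spanned 8.83 to 14.2 TPM in EMCN+ LT-HSCs, 9.49 to 13.8 in EMCN- LT-HSCs and 4.84 to 6.14 in GMPs. In TPM its GMP libraries thus lay below all stem cell libraries. All 6 called members kept their call and their direction under 24 alternative settings in each comparison. Scaling by library totals alone lowered all 6. Against EMCN+ LT-HSCs it gave log2 changes of 0.71 for Spi1, 0.76 for Cebpb, 3.96 for Cebpa, 4.24 for Cebpd, 4.33 for Irf8 and 6.32 for Cebpe, each lower as a fold by over 1.5 times. Against EMCN- LT-HSCs the lowest were 0.84 for Spi1 and 1.33 for Cebpb. Under that scaling the split of all called genes was 1877 higher and 8973 lower against EMCN+ LT-HSCs, beside 4386 and 4760 with TMM factors, and 1473 and 8209 against EMCN- LT-HSCs, beside 3637 and 4222.

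Summed levels of markers of other cell types differed between GMPs and stem cells in both directions. Of 14 mature neutrophil markers 11 had counts in GMPs, and their sum was 132, 549, 246 and 224 CPM in GMPs of mice 1 to 4, 3.01 to 5.46 CPM in EMCN+ LT-HSCs and 2.82 to 4.36 CPM in EMCN- LT-HSCs. Stfa1, Stfa2 and Ly6g, which mark mature neutrophils, were at 0 in all libraries. All 13 monocyte and macrophage markers had counts in GMPs, with sums of 946 to 1136 CPM, against 17.4 to 28.3 and 20.4 to 28.5 CPM in the stem cell fractions. The 10 mast cell, basophil and eosinophil markers summed to 188 to 319 CPM in GMPs, 1.46 to 7.35 CPM in EMCN+ LT-HSCs and 3.39 to 5.20 CPM in EMCN- LT-HSCs. Of 11 T and NK cell markers 10 were in the count table, and 7 of these had counts in GMPs. Their sums were 133 to 141 CPM in GMPs against 11.1 to 17.3 and 15.5 to 18.1 CPM in EMCN+ and EMCN- LT-HSCs. Cd3e and Ncr1 were at 0 in all libraries. All 11 B cell markers had counts in GMPs, at 21.3 to 32.6 CPM against 8.60 to 13.9 and 7.75 to 15.0 CPM. Sums were lower in GMPs for dendritic cell markers (68.0 to 86.3 CPM against 179 to 231 and 166 to 219, with Cd209a at 0 in all libraries), erythroid markers (135 to 216 against 404 to 507 and 460 to 545), megakaryocyte markers (17.8 to 38.6 against 358 to 461 and 274 to 310) and endothelial markers (99.4 to 124 against 438 to 559 and 360 to 425). The part of such cells in the members' levels was not tested. Among GMP libraries, mouse 2 had the highest neutrophil and monocyte sums and the highest Irf8, mouse 1 the highest Spi1, Cebpa, Cebpd and Cebpe, and mouse 3 the highest Cebpb and Cebpg.

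Between EMCN+ and EMCN- LT-HSCs, none of the 7 members was called by edgeR. Over all genes tested, 0.771% were called higher in EMCN+ cells and 1.19% lower. These were 115 and 178 genes, a split that turned to 161 higher and 50 lower with libraries scaled by their totals alone, where the median of all genes moved from 0 to 0.11. At an unadjusted p under 0.05 in edgeR there was 1 member, Cebpb, beside 13.9% of all genes tested. DESeq2 and limma-voom called 0 members each, with 1 and 0 at an unadjusted p under 0.05. The ranges of the fractions overlapped for every member.

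Cebpb was 1.37-fold higher in EMCN+ LT-HSCs (log2 0.46 ± 0.19 SE, 95% interval 0.05 to 0.86, edgeR unadjusted p 0.029, adjusted p 0.282). It was higher in 2 of 3 mice with both fractions, with log2 differences from -0.02 to 1.02 within mice. Irf8 had a log2 difference of 0.42 ± 0.30 (-0.21 to 1.05, edgeR adjusted p 0.583), which was 1.09 with an adjusted p of 0.0693 without the EMCN- library of mouse 2. Cebpg was lower in EMCN+ cells of 3 of 3 mice, at -0.22 ± 0.14 (-0.51 to 0.07, edgeR adjusted p 0.513). The narrowest intervals were those of Cebpg and of Spi1, which had a log2 difference of 0.02 ± 0.14 (-0.28 to 0.32, edgeR adjusted p 0.974).

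For the genes with few counts in stem cells the comparison was wide. The log2 difference was 0.04 ± 0.23 for Cebpa (-0.43 to 0.52, edgeR adjusted p 0.967) and 0.08 ± 0.38 for Cebpd (-0.72 to 0.87, edgeR adjusted p 0.961). For Cebpe the ratio of 6 to 2 summed counts was 1.32 per effective library size (exact 95% counting interval 0.237 to 13.4). This last interval covers counting error only, not the spread between mice. With 4 and 3 libraries per fraction at this depth, values within these intervals could not be told apart.

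Ranked by CPM per kb of the longest annotated transcript, the order of the members differed between populations. In EMCN+ LT-HSCs Spi1 stood first at 17.1 ± 2.61 CPM per kb (SD, n = 4), above Cebpb at 8.24 ± 0.742 and Cebpg at 6.74 ± 0.870, whose ranges overlapped. Irf8 at 1.26 ± 0.129 and Cebpa at 1.25 ± 0.208 could not be separated, and Cebpd at 0.341 ± 0.152 and Cebpe at 0.135 ± 0.160 came last. EMCN- LT-HSCs had Spi1 at 16.8 ± 2.59 CPM per kb (n = 3), then Cebpg at 7.86 ± 0.285 and Cebpb at 5.91 ± 1.67 with no overlap.

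In GMPs the ranges of Spi1 (49.8 ± 5.92 CPM per kb, n = 4) and Irf8 (45.5 ± 7.08) overlapped, as did those of Irf8 and Cebpa (35.1 ± 3.56). Cebpb (24.97 ± 2.82) and Cebpe (19.4 ± 2.14) overlapped in turn. Cebpd followed at 11.9 ± 1.64 CPM per kb, and Cebpg, among the leading 3 in both stem cell fractions, was last at 8.07 ± 0.991. The order depends on the transcript length used. With the median transcript length, Cebpg stood at rank 4 in GMPs with 30.1 ± 3.70 CPM per kb, after Cebpa at 38.5 ± 3.90 and with a range that overlapped that of Cebpb. With that length Spi1 was first in each population, and in GMPs its range lay above that of Irf8.

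The make-up of the C/EBP family was therefore described as each gene's share of the summed level per length. Cebpa made up 7.47 ± 1.19% of the sum in EMCN+ LT-HSCs (SD, n = 4), 7.76 ± 1.74% in EMCN- LT-HSCs (n = 3) and 35.3 ± 1.69% in GMPs (n = 4). Cebpe went from 0.820 ± 0.983% and 0.507 ± 0.440% to 19.5 ± 0.897%, and Cebpd from 2.04 ± 0.908% and 2.16 ± 0.265% to 11.9 ± 1.15%. The share of Cebpb was 49.4 ± 4.63%, 37.9 ± 5.80% and 25.2 ± 2.71%, and that of Cebpg 40.3 ± 4.69%, 51.7 ± 6.20% and 8.11 ± 0.672%. With the median transcript length, which is shorter for Cebpg, its share was 70.6%, 79.0% and 22.4%, so which of Cebpb and Cebpg leads in EMCN+ LT-HSCs depends on the length. Shares of 1 sum are tied to each other and were not tested.

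**Figure D3:**
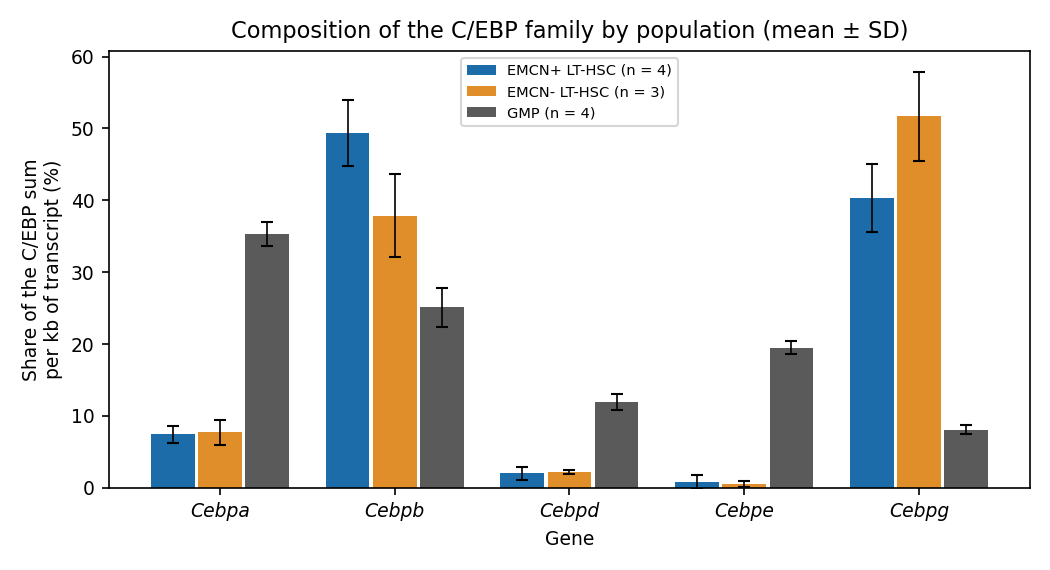
Share of each C/EBP gene in the family's summed level per kb of longest transcript (%), as mean bars with SD for EMCN+ LT-HSCs (n = 4), EMCN- LT-HSCs (n = 3) and GMPs (n = 4). Cebpb and Cebpg hold most of the sum in stem cells, and Cebpa, Cebpb and Cebpe most of it in GMPs.

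Ratios between members within a library gave the balance of factors that compete or cooperate. They are differences of log2 CPM (prior count 2), not corrected for length, and were not tested. Cebpa to Spi1 was -3.30 ± 0.38 in EMCN+ LT-HSCs (SD, n = 4), -3.35 ± 0.26 in EMCN- LT-HSCs (n = 3) and -0.13 ± 0.06 in GMPs (n = 4), the smallest spread of the ratios in GMPs. Irf8 to Spi1, which encode partners at composite sites, went from -2.90 ± 0.21 and -3.48 ± 0.68 to 0.63 ± 0.23. Irf8 to Cebpa was 0.40 ± 0.34, -0.13 ± 0.44 and 0.77 ± 0.26. Cebpb to Cebpa turned from 1.84 ± 0.33 and 1.41 ± 0.37 in stem cells to -1.29 ± 0.22 in GMPs.

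The genes whose log2 CPM followed each member most closely over the 11 libraries were found among 10135 genes with a mean of at least 5 CPM. Since the libraries form 2 separate clusters, stem cells and GMPs, each Pearson r spans that step. For Cebpa they were Lgals1 (r = 0.998), Mefv (0.997) and Alas1 (0.996), and for Spi1 Tmem248 (0.994), Abcb10 (0.991) and Idh1 (0.989). For Irf8 they were Hk3 (0.996), Mtus1 (0.995) and Dtx4 (0.995), and Dtx4 also led for Cebpe (0.993), before Olr1 and C3 (0.992 each). Cebpd was followed by Igsf6 and Bace1 (0.994 each) and Plppr3 (0.992), and Cebpb by Kctd20 (0.984), Gstm1 (0.982) and Sgms2 (0.980). Cebpg had no such close match, with Trdmt1 at 0.876 and Rnf130 at 0.863.

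The listed relatives and partners of the factors fell more often than they rose. Over all genes tested, 29.4% were called higher in GMPs than in EMCN+ LT-HSCs and 31.9% lower. Against EMCN+ LT-HSCs, of 28 tested bZIP factors and coactivators of 31 listed, 4 rose and 14 fell, with a median log2 change of -0.67 beside -0.04 over all genes. Hlf, a stem cell bZIP factor, fell from 433 ± 46.3 to 7.76 ± 0.953 CPM (log2 -5.80 ± 0.14 SE, n = 4 each, edgeR adjusted p 8.13e-18), and Bach2 dropped to 1.97 CPM from 24.3 CPM (-3.67 ± 0.30, edgeR adjusted p 1.95e-09). Nfil3 rose from 2.02 to 10.2 CPM (2.36 ± 0.37, edgeR adjusted p 1.02e-05). Atf4, a partner of C/EBP-gamma, rose from 52.5 to 77.7 CPM (0.57 ± 0.12, edgeR adjusted p 0.000496), but was at -0.26 with an edgeR adjusted p of 0.0746 when scaled by totals. That scaling gave 1 bZIP gene higher and 22 lower.

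None of the 16 tested ETS relatives of PU.1 rose, and 13 fell (median -0.99), beside 29.4% and 31.9% of all genes tested. Erg, a stem cell ETS factor, fell from 150 ± 12.1 to 28.9 ± 1.96 CPM (log2 -2.38 ± 0.11 SE, n = 4 each, edgeR adjusted p 1.16e-13), and Etv5 dropped to 4.45 CPM from 33.6 CPM (-2.90 ± 0.26, edgeR adjusted p 4.07e-08). Of 10 genes of the IRF family and its binding partners, 6 fell and 1 rose (median -1.60), against the rise of Irf8. Irf7, a factor of the interferon response, went down to 3.76 CPM from 31.7 CPM (-3.09 ± 0.25, edgeR adjusted p 2.7e-09). The riser was Irf2bp2, from 110 to 212 CPM (0.95 ± 0.12, edgeR adjusted p 4.74e-07). It was not called when libraries were scaled by totals (edgeR adjusted p 0.355), with 0 IRF genes higher and 9 lower.

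Of 38 tested genes reported to act on Cebpa or Spi1, or on their proteins, 10 rose and 25 fell (median -1.07), or 4 and 29 with total scaling. Over all genes tested 29.4% rose and 31.9% fell, so the part of this list that rose was near that of all genes. Gfi1, a repressor that opposes PU.1, rose from 10.2 ± 1.33 to 49.3 ± 6.22 CPM (log2 2.28 ± 0.17 SE, n = 4 each, edgeR adjusted p 2.15e-10), and Klf4, a monocyte factor downstream of PU.1 and IRF8, from 1.28 to 12.1 CPM (3.23 ± 0.40, edgeR adjusted p 4.52e-07). Meis1, a stem cell homeobox gene, dropped to 26.2 CPM from 347 CPM (-3.73 ± 0.14, edgeR adjusted p 6e-15), and Zfpm1, the GATA cofactor FOG1, from 206 to 14.1 CPM (-3.86 ± 0.17, edgeR adjusted p 1.68e-12). Trib3, of the Tribbles family whose other members mark C/EBP-alpha for degradation, dropped to 0.168 CPM from 8.97 CPM (-5.51 ± 0.48, edgeR adjusted p 2.55e-09). Its mean in GMPs was below the 3-count limit of every GMP library, 0.473 to 0.683 CPM. Egr1, an immediate early gene, dropped to 0.898 CPM from 50.4 CPM (-5.78 ± 0.34, edgeR adjusted p 1.39e-09).

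**Figure D4:**
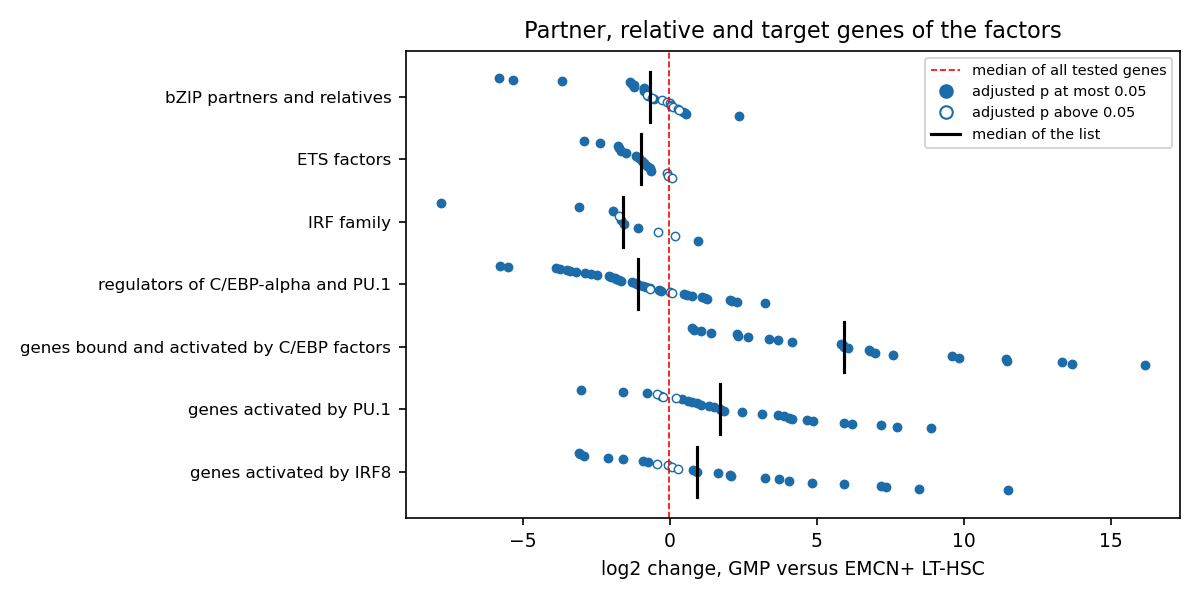
Log2 change in GMPs against EMCN+ LT-HSCs for the tested genes of 7 lists, 1 point per gene, filled for an edgeR adjusted p of at most 0.05, with black bars for list medians and a dashed line for the median of all tested genes. List medians run from -1.60 for the IRF family to 5.92 for genes activated by C/EBP factors.

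Genes known to be activated by C/EBP factors were higher in GMPs. All 25 tested of 28 listed rose against EMCN+ LT-HSCs (median 5.92) and all 25 against EMCN- LT-HSCs (median 6.08, or 5.89 with genes at 0 counts held at their limit). With total scaling 21 and 23 were called higher and 0 lower. Over all genes tested with TMM factors, 29.4% were called higher against EMCN+ LT-HSCs and 24.4% against EMCN- LT-HSCs. Genes with few or no counts in stem cells passed the filter through GMPs, so these counts are a description. Mpo, the myeloperoxidase of primary granules, rose from 0.980 ± 0.852 to 11439 ± 1388 CPM (log2 13.69 ± 0.51 SE, n = 4 each, edgeR adjusted p 1.27e-08), and Elane, neutrophil elastase, from 0.229 to 2629 CPM (13.35 ± 0.55, edgeR adjusted p 2.41e-08). The stem cell mean of Elane lay within the 3-count limits of single EMCN+ libraries, 0.209 to 0.586 CPM, so the size of its change rests on few counts. Ctsg, another granule protease, and Clec5a, a myeloid lectin receptor, had 0 counts in EMCN+ LT-HSCs. Against 3 counts over the group they were at least 16492-fold and at least 648-fold higher in GMPs.

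Of genes known as PU.1 targets, with 30 tested of 34, 23 rose and 4 fell (median 1.72), or 17 and 7 with total scaling. Of all genes tested, 29.4% rose and 31.9% fell with TMM factors. Here too, and among the IRF8 targets that follow, genes near 0 in stem cells passed the filter through GMPs. Fcgr3, an Fc receptor bound by the anti-CD16/CD32 antibody in the sorting panel, rose from 0.470 to 206 CPM (log2 8.88 ± 0.20 SE, n = 4 each, edgeR adjusted p 3.58e-18). Csf1r, the macrophage growth factor receptor, rose from 0.620 to 50.3 CPM (6.19 ± 0.33, edgeR adjusted p 2.28e-11) and Tyrobp, an adaptor of myeloid receptors, from 0.431 to 93.2 CPM (7.74 ± 0.28, edgeR adjusted p 3.45e-14). The stem cell means of Fcgr3 and Tyrobp lay within the 3-count limits of single EMCN+ libraries, 0.209 to 0.586 CPM. Lsp1 was lower at 14.9 CPM against 120 CPM (-3.02 ± 0.12, edgeR adjusted p 2.07e-14), and Flt3, a receptor of early lymphoid and myeloid progenitors, from 19.3 to 6.54 CPM (-1.58 ± 0.24, edgeR adjusted p 8.16e-06).

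Of genes known to be activated by IRF8, 14 of 25 tested rose and 7 fell (median 0.92), or 12 and 10 with total scaling. Over all genes tested 29.4% rose and 31.9% fell, so the part of this list that fell was near that of all genes. The monocyte genes Ly6c2 and Ccr2 rose from 0.147 to 354 CPM (log2 11.50 ± 0.32 SE, n = 4 each, edgeR adjusted p 2.45e-12) and from 0.155 to 70.1 CPM (8.46 ± 0.29, edgeR adjusted p 2.8e-15). Both stem cell means were below the 3-count limit of every EMCN+ library, 0.209 to 0.586 CPM. The sizes of these 2 changes thus rest on few counts. The antigen presentation genes H2-Aa, Cd74 and Ciita were among those that fell. H2-Aa was lower at 2.03 CPM against 16.8 CPM (-3.08 ± 0.31, edgeR adjusted p 2.07e-08), Cd74 from 41.1 to 5.14 CPM (-3.04 ± 0.48, edgeR adjusted p 0.000408) and Ciita, their activator, from 6.78 to 0.945 CPM (-2.91 ± 0.54, edgeR adjusted p 9.07e-05). Against EMCN- LT-HSCs, 14 genes of this list rose and 7 fell, 21 and 3 of the PU.1 list, 8 and 24 of the regulators, 4 and 14 of the bZIP list, 1 and 6 of the IRF list and 0 and 12 of the ETS list. Over all genes tested, 24.4% were higher and 28.3% lower in that comparison. Some genes stand in more than 1 list.

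Between the stem cell fractions, edgeR called 2 of 38 tested regulators and 2 of 25 C/EBP targets, with Gfi1 in both lists. It called 1 of 30 PU.1 targets and 1 of 25 IRF8 targets. Over all genes tested, 0.771% were called higher in EMCN+ cells and 1.19% lower. At an unadjusted p under 0.05 in edgeR there were 9, 5, 8 and 3 genes of these lists. DESeq2 called 4, 3, 1 and 1 of them, and limma-voom 4, 2, 1 and 1. No bZIP, ETS or IRF relative was called by edgeR. At an unadjusted p under 0.05 there were 3 of 28, 4 of 16 and 3 of 10, beside 13.9% of all genes tested. With total scaling edgeR called 2 IRF genes. DESeq2 called 1, 0 and 2 genes of the bZIP, ETS and IRF lists and limma-voom 0, 0 and 2. The medians of the bZIP, ETS and IRF lists were 0.03, 0.14 and 0.23, beside 0 over all genes. Gfi1 was higher in EMCN+ LT-HSCs at 10.2 ± 1.33 CPM (SD, n = 4) than in EMCN- LT-HSCs at 3.81 ± 1.26 (n = 3), with a log2 difference of 1.45 ± 0.23 SE (edgeR adjusted p 0.00217). Plac8 was lower in EMCN+ LT-HSCs at 14.9 ± 5.16 against 50.0 ± 7.62 CPM (-1.74 ± 0.21, edgeR adjusted p 0.00158). Both kept their call in 24 of 24 alternatives.

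Gata1 and Lsp1 were also called and lost their call when single libraries were left out. Gata1, the erythroid and megakaryocytic factor that antagonises PU.1, was lower at 1.54 ± 1.08 CPM in EMCN+ LT-HSCs (SD, n = 4) against 6.51 ± 3.78 (n = 3), with a log2 difference of -2.11 ± 0.51 SE (edgeR adjusted p 0.0374). Its edgeR adjusted p was 0.363 without the EMCN- library of mouse 1 and 0.145, 0.0819 and 0.0595 without the EMCN+ libraries of mice 2, 3 and 4. Lsp1 was higher by 0.46 ± 0.11 (edgeR adjusted p 0.041), with 0.287 and 0.111 without the EMCN- libraries of mice 1 and 4 and 0.134, 0.0776 and 0.0691 without the EMCN+ libraries of mice 2, 3 and 4. Fitted with mouse as a replicate block, edgeR called 4 regulators, adding Kmt2a (0.50 ± 0.11, adjusted p 0.0182) and Myc (-0.41 ± 0.10, adjusted p 0.0309), and 1 IRF gene, Irf1 (0.57 ± 0.14, adjusted p 0.0309). No member was called with the block.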

How the data were processed

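Libraries of RNA from sorted cells were made with a Pico-input SMARTer stranded total RNA kit and sequenced as Illumina read pairs, per the labels' protocols, although the labels give the molecule as polyA RNA. Per gene, the authors deposited estimated counts, and the submitters' processing notes name cutadapt and Salmon. Versions, genome build, annotation and strand setting are not given in the sources used here. Estimated counts were rounded to integers for fitting. Of 54347 gene identifiers, 54094 matched GENCODE M21 on GRCm38, the source of lengths and coordinates.

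A single model of the 11 libraries was fitted in R 4.3.3 using edgeR 4.0.16 (TMM factors, filterByExpr with a minimum count of 10, robust quasi-likelihood test, no block), with Benjamini-Hochberg adjustment over 14915 genes at a threshold of 0.05. The fit was also run on simulated counts in which few genes changed, unlike the GMP comparisons, and the outcome is not reported here. Library totals were 3629234 to 11141483 counts. Log2 CPM used a prior count of 2. Intervals of log2 changes use the t distribution with edgeR's degrees of freedom, and those of Cebpe are exact counting intervals.

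Same-numbered libraries come from the same mouse. The correlation of their deviations from the group means was 0.165 to 0.223 between EMCN+ and EMCN- LT-HSCs, 0.105 to 0.150 between EMCN- LT-HSCs and GMPs and -0.0606 to 0.0613 between EMCN+ LT-HSCs and GMPs. Between libraries of different mice it was -0.246 to 0.190, -0.168 to 0.0622 and -0.172 to 0.161 in the same order.

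The members and lists were chosen with earlier results of these data known. Named genes were the members, up to 4 called genes per direction and list with the largest change against EMCN+ LT-HSCs and a mean of at least 5 CPM in 1 group, the list genes called between the stem cell fractions, and the 3 genes most alike each member. Not all genes the rule allows were named, and some are not reported here. Kmt2a, Myc and Irf1 were added after their values were seen. Alternatives were other normalization factors (RLE, upper-quartile, totals alone), other filters, DESeq2 1.42.0, limma-voom (limma 3.58.1), a mouse block, protein-coding genes, thinned libraries, 2 groups at a time and each library left out. The order of levels with median transcript lengths was added after seeing the data. A planned comparison of protein sequences was not run.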

Additional observations from a re-analysis of the deposited data

Results flagged for a closer look

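Among 34 sets of 4 libraries checked for a single value far from the others, 2 had one, and chance alone gives about 1 in 20. Both were ratios to Cebpa in the EMCN+ LT-HSC library of mouse 1. That library had the highest Cebpa of its group and also the lowest Irf8 and the lowest Cebpb. The log2 ratio of Irf8 to Cebpa was -0.10 there, the lowest of the 4, and the log2 ratio of Cebpb to Cebpa was 1.35, again the lowest. The 2 ratios share Cebpa and the library.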

How the results depend on the processing

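The 6 members called in GMPs kept call and direction in 24 of 24 alternatives against each stem cell fraction, and no alternative called a member between the fractions. Leaving out 1 library gave 6 to 7 called members against EMCN+ LT-HSCs and 6 to 6 against EMCN- LT-HSCs. With total-count scaling both comparisons had 7, Cebpg being called lower. The count of all genes called between the fractions was less stable. It was 293 in the fit reported, 529 without the low-count filter, 451 with DESeq2 and 465 among protein-coding genes. With the replicate block (mouse) it was 374 over 11 libraries and 412 over the 9 libraries of mice 1, 2 and 4. It was 55 to 338 when 1 library was left out, lowest without the EMCN- library of mouse 1.

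Differences near 0 changed sign. Between the fractions, Cebpd was at -0.0952 with limma-voom and -0.0965 in thinned libraries, Cebpe at -0.33 with limma-voom, and Spi1 at -0.0204 in thinned libraries. With the replicate block (mouse) Spi1 was at -0.0014 over 11 libraries and -0.0629 over the 9 libraries of mice 1, 2 and 4. Leaving out 1 library gave -0.0960 to 0.30 for Cebpa, -0.0904 to 0.35 for Cebpd, -0.39 to 0.76 for Cebpe and -0.0964 to 0.0908 for Spi1. Cebpg in GMPs was at -0.58 against EMCN+ LT-HSCs with total-count scaling and 0.34 without the GMP library of mouse 4. Against EMCN- LT-HSCs it was at -0.0745 with upper-quartile factors, -0.69 with total-count scaling, and -0.00647 and -0.00330 with the replicate block over 11 and 9 libraries. The cause was not tested. The block changed no call of a member. Counts in stem cells limit Cebpe and, less so, Cebpd and Cebpa.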
